A study of Mus musculus with 10 samples.

Results

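Nucleophosmin (NPM1) occupancy and promoter H3K4me3 were examined at 10 genes of the p53 and ARF pathway: Trp53, Mdm2, Mdm4, Cdkn2a, Cdkn1a, Ccng1, Bbc3, Bax, Gadd45a and Sesn1. They are 10 of the 21887 protein-coding genes of the gene table. They were chosen as pathway members, not by a measured value, but with earlier results of these data known. Every called peak over each gene and the 5 kb on either side of it was taken (mm10, positions counted from 1). In 2 of the 4 NPM1 libraries, infarct and IL-4, 9 of the 10 genes carried a peak within 1 kb of an annotated start. Of the 17492 genes with a listed start, 49.6% did in infarct and 49.5% in IL-4. In the other 2, sham and untreated, no member did, against 6.07% and 5.16% of these genes. This start rule was added after the data had been seen. By the planned rule, a peak within 1 kb of either gene end, 8 members were called in infarct (50.6% of all genes) and 7 in IL-4 (51.2%). By the start rule the exception in infarct and IL-4 was Cdkn2a, the ARF gene itself, whose ARF-side start carried H3K4me3 and no NPM1 peak. Its WT mark was the weakest among the marked member starts, with 15 reads. Of all starts with H3K4me3 in both genotypes and at most 15 WT reads, 54.3% had NPM1 in neither list. The mark lies by a start of the non-coding RNA Gm12610 as well and cannot be assigned to 1 of the 2.

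p53 is a transcription factor that is held at a low level in unstressed cells and rises after DNA damage and other stress. MDM2 marks it for destruction and MDM4 blocks its activity. ARF, the product of an alternative first exon of Cdkn2a, binds MDM2 and so frees p53. NPM1 binds ARF and holds it in the nucleolus. Active p53 switches on genes that stop the cell cycle, start apoptosis or restrain growth, and also Mdm2, which closes a feedback loop.

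The data are CUT&Tag peak lists from mouse macrophages. CUT&Tag directs a transposase to an antibody on chromatin, so that cut sites pile up where the target sits. NPM1 was mapped in WT cardiac macrophages isolated on day 3 after myocardial infarction, and in WT cardiac macrophages isolated on day 3 after a sham operation. The cultured cells were bone marrow-derived macrophages (BMDM) of WT mice, given 20 ng/ml IL-4 for 12 hours or left untreated (0 hours), and NPM1 was mapped in both. All BMDM had first been grown for 7 days in M-CSF at 50 ng/ml. H3K4me3, a histone mark of active promoters, was mapped in Npm1 conditional-knockout (KO) and in WT cardiac macrophages, both on day 3 after infarction. The cell type in which Npm1 was deleted, the animals' ages and any pooling are not stated in the labels or the design text. There was 1 library per group, so nothing below could be checked against replicates or tested. A further 4 libraries of the series were not analysed here.

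The lists held 79893 peaks for infarct, 58011 for sham, 104514 for IL-4, 58989 for untreated, 52977 for KO and 73321 for WT. Total reads were not given. The genome-wide background at the summits, which grows with depth, was 3.03 reads in infarct against 1.29 in sham, 4.18 in IL-4 against 1.31 in untreated, and 2.49 in KO against 2.92 in WT. The infarct library was thus 2.35 times as deep as sham by this measure, and IL-4 was 3.19 times as deep as untreated. At the genome-wide background a summit needed 8 reads to be called in infarct, 5 in sham, 10 in IL-4, 5 in untreated, 7 in KO and 8 in WT. A peak within 1 kb of a gene end was called at 50.6% of all protein-coding genes in infarct, 10.9% in sham, 51.2% in IL-4, 6.71% in untreated, 61.8% in KO and 57.1% in WT. Of 10 macrophage marker genes, such a peak was called at 10 in infarct, 2 in sham, 10 in IL-4, 0 in untreated, 10 in KO and 8 in WT. Of 6 cardiomyocyte genes the numbers were 2, 1, 1, 0, 0 and 1 in the same order, of 6 fibroblast genes 1, 1, 2, 0, 4 and 1, and of 6 endothelial genes 2, 0, 4, 0, 3 and 3. Of 6 neutrophil genes they were 2, 1, 3, 0, 3 and 3, and of 5 lymphocyte genes 1, 0, 2, 0, 2 and 1. In sham and untreated so few genes of any kind had a peak that low marker counts say little. Of the 6 cardiomyocyte genes, Myh6, Tnnt2 and Ryr2 had no such peak in any of the 6 lists, Actc1 had one in infarct, sham and WT, Myl2 in infarct and Tnni3 in IL-4. The part of other cells in the peaks below was not tested.

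A fold enrichment and a −log10 q below are the authors' values for a peak and rank it within its own list. Values of different libraries set side by side depend on how deep and how enriched each library is. The summit pileup, in reads, was solved from the authors' fold and −log10 p. Starts are those of the RefSeq promoter table (GRCm38.p6, the assembly that mm10 names), which gave 16 starts for the 10 genes. A gene has a start peak where a called peak overlaps the 1 kb on either side of any of its starts. Where a gene has several starts, the first in the direction of transcription is called the outer one.

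At Cdkn1a, Mdm4 and Cdkn2a the outer and the inner start behaved differently, and the 250 bases before each of these 6 starts are shown for that reason (RefSeq, GRCm38.p6). Sequences run in the direction of transcription. Capitals mark CG dinucleotides, which are dense in the promoters called CpG islands.
Cdkn1a outer start, chr17:29090729-29090978, plus strand: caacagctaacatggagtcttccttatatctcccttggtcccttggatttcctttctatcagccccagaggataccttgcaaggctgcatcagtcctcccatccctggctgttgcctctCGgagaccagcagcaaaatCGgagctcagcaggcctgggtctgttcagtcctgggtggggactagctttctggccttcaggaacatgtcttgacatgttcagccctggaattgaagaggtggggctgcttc
Cdkn1a inner start, chr17:29093519-29093768, plus strand: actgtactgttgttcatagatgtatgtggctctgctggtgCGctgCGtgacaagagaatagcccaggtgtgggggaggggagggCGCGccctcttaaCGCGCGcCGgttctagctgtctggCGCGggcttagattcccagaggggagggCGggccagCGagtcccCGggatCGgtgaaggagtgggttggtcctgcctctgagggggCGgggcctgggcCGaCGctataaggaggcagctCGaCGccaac
Mdm4 outer start, chr1:133030588-133030837, minus strand: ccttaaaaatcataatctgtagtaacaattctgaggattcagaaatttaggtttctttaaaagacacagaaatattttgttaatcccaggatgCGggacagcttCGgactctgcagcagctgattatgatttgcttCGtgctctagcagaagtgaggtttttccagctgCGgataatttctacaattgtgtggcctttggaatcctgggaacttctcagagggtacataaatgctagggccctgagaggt
Mdm4 inner start, chr1:133025417-133025666, minus strand: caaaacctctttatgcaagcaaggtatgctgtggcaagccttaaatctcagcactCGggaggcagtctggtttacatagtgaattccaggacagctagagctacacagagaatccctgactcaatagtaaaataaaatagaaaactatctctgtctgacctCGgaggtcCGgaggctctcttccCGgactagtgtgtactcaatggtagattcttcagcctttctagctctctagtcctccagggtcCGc
Cdkn2a outer start, chr4:89294620-89294869, minus strand: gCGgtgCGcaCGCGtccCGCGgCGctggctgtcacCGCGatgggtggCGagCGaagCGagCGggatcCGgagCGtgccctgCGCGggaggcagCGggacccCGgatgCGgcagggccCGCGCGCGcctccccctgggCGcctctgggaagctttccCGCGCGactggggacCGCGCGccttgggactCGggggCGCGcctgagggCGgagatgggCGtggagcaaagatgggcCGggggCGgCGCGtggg
Cdkn2a inner start, chr4:89282193-89282442, minus strand: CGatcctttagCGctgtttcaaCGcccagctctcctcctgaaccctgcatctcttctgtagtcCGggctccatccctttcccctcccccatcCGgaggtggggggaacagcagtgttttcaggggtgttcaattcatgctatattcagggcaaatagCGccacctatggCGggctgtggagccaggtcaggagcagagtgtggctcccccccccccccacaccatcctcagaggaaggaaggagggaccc

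The outer Cdkn1a stretch holds a p53 consensus element, and it is shown because p53 is known to act on Cdkn1a from such elements. Capitals mark the 4-base core of each of its 2 adjacent 10-base consensus units.
Cdkn1a element, chr17:29090928-29090947, plus strand: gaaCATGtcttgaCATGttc
It lies 51 to 32 bases before the outer start and has 1 mismatch to the consensus, outside the cores. The search allowed 2 consensus units with up to 13 bases between them and 1 mismatch in all, and read windows from 250 bases before to 50 bases after each start. It found a match at 77 of 21263 starts of protein-coding genes (0.362%) and at 1 of the 16 member starts, the Cdkn1a one. A second match, with 12 bases between the units and 0 mismatches, overlaps the element. Adjacent units, counted after the match had been seen, occurred at 9 starts (0.0423%). A match is a description of letters in this window, and elements farther from a start were not searched.

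NPM1 in infarct and sham macrophages was compared to ask where NPM1 sat after injury. By the start rule, 9 of the 10 genes had an infarct peak, against 49.6% of all 17492 genes with a listed start, and 0 had a sham peak, against 6.07%. A gene with several starts has more chances to be called by this rule. Counted by start, 12 of the 16 member starts had an infarct peak, against 48.3% of all 21263 starts. Of these 12, 3 are Bbc3 starts that share 1 peak. In sham 0 member starts had a peak, against 5.6% of all starts. An infarct peak with no sham peak was seen at 9 members, against 46.0% of all genes. At a −log10 q of at least 5, 8 members were left in infarct, against 29.4% of all genes, and 0 in sham, against 0.280%. Trp53 was the gene below that level in infarct. Since only 6.07% of all genes had a sham start peak, a count of 0 among 10 genes is near the background. When the infarct peaks were thinned to the background of the sham library, the same 9 genes still had a start peak. The share of all genes after thinning was not counted. Thinning scales the reads of a peak by a fixed ratio and leaves its enrichment nearly as it was, so strong peaks tend to stay. The part of depth in the difference was not tested.

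IL-4-treated and untreated BMDM gave the same 9 genes. By the start rule, 9 members had an IL-4 peak, against 49.5% of all genes, and 0 had an untreated peak, against 5.16%. An IL-4 peak with no untreated peak was seen at 9 members, against 45.8% of all genes. At the stricter level, a −log10 q of at least 5, 9 members were left in IL-4, against 30.6% of all genes, and 0 in untreated, against 0.183%. Trp53 reached it only through a peak with its summit 870 bp before the start, 240 bp from a start of the neighbouring gene Wrap53. The IL-4 peak over the Trp53 start itself had a −log10 q of 3.15. Thinning IL-4 to the untreated background left the same 9 genes, and here too the share of all genes after thinning was not counted. Counted by start, 12 of the 16 member starts had an IL-4 peak, against 48.3% of all starts, and 0 had an untreated peak, against 4.86%. The 12 member starts with a peak were the same in infarct and IL-4. Of all 10262 starts with an IL-4 peak, 87.1% also had an infarct peak. At each of the 12 member starts the strongest infarct and IL-4 summits lay 0 to 122 bp apart, with a median of 5 bp. This distance was not taken over all starts. The 3 Bbc3 starts share 1 pair of peaks, and over the 10 distinct pairs the median was 8.5 bp.

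H3K4me3 marked all 10 members in both genotypes by the start rule, 10 in KO against 62.8% of all genes, and 10 in WT against 57.9%. No member was marked in KO only, against 7.37% of all genes. With −log10 q of 5 or more, 10 members were marked in KO, against 59.0% of all genes, and 9 in WT, against 45.3%, the missing one being Cdkn2a. Of the 16 member starts 13 carried the mark in both lists. Of all 21263 starts, 61.9% carried it in KO and 56.6% in WT. All 14 infarct and all 14 IL-4 NPM1 peaks at member starts overlapped a WT H3K4me3 peak by 1 bp or more. Of all 10268 annotated starts with an infarct NPM1 peak, 92.0% also had a WT H3K4me3 peak within 1 kb, so the members did as most starts did. Of all infarct NPM1 peaks, at starts or elsewhere, 38.9% overlapped a WT H3K4me3 peak.

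**Figure D1:**
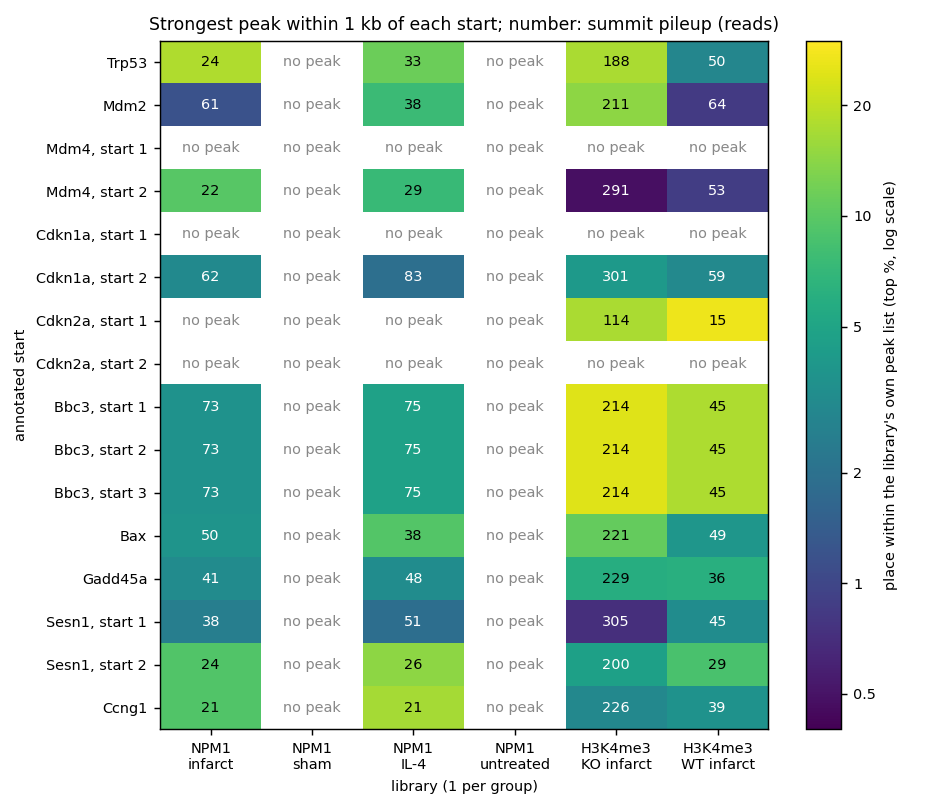
Strongest called peak within 1 kb of each of the 16 annotated starts (rows, start 1 being the outer one) in each of the 6 libraries (columns). Colour gives the peak's place within its own list in percent on a log scale, darker being stronger, and the number gives the summit pileup in reads. Sham and untreated have no peak at any of the 16 starts, and Cdkn2a start 1 has H3K4me3 only. The 3 Bbc3 starts share their strongest peak in each list.

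The planned rule, a peak within 1 kb of either outermost end of the gene, misses inner starts and also counts a peak at the far end. By it 8 members were called in infarct (50.6% of all genes) and 0 in sham (10.9%). In IL-4 7 members had one (51.2%) and in untreated 0 (6.71%). In KO and in WT 8 members had one (61.8% and 57.1%). Cdkn1a and Mdm4 are missed by this rule, and Cdkn2a is counted in infarct through a peak at its other end. Over the whole gene and 5 kb on either side, 10 members were called in infarct (74.9%) and 4 in sham (52.4%), 9 in IL-4 (78.3%) and 2 in untreated (36.2%), and 10 in KO (72.2%) and 10 in WT (77.1%). The 4 genes with a sham peak were Trp53, Mdm2, Cdkn1a and Sesn1, and the 2 with an untreated peak were Cdkn1a and Sesn1.

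Over these windows the lists held 36 infarct, 8 sham, 38 IL-4, 3 untreated, 28 KO and 35 WT peaks. Merged, they made 54 regions. The most frequent combination, infarct, IL-4, KO and WT without sham and untreated, accounted for 17 regions, and 18 regions were seen in 1 list only. Median peak widths were 423.5 bp in infarct and 200 bp in sham, 377.5 bp in IL-4 and 344 bp in untreated, and 968 bp in KO and 401 bp in WT.

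Trp53, which encodes p53, lies on chromosome 11 from 69580348 to 69591873 on the plus strand. Its start region had 3 peaks in infarct and 3 in IL-4, whose places ran from the top 11.3% to the top 43.3% of their lists. The infarct peak over the start ran from 69580060 to 69580539 with a summit 59 bp inside the gene, 22 reads, a fold of 3.23 and a −log10 q of 3.99. The IL-4 peak over the start ran from 69580126 to 69580489 with a summit 119 bp before the start, 23 reads, a fold of 2.74 and a −log10 q of 3.15. The stronger peaks of both lists lay farther upstream, with 24 reads in infarct and 33 in IL-4, 992 and 870 bp before the Trp53 start. These summits are 118 and 240 bp from a start of Wrap53, the neighbouring gene read in the other direction, which encodes a telomerase-associated protein and an antisense transcript of p53. The peaks over the Trp53 start lie by a Wrap53 start as well, with NPM1 summits 168 bp from it in infarct and 10 bp in IL-4. The H3K4me3 summits there are 68 bp from it in KO and 64 bp in WT. CUT&Tag peaks carry no strand, so signal of the 2 genes cannot be told apart at any of these peaks. H3K4me3 over the start reached 188 reads with a fold of 4.73 in KO, against 50 reads with a fold of 6.10 in WT. In sham the window held 1 peak, 3250 bp before the start, with 8 reads, and in untreated it held none.

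Mdm2, which encodes the ubiquitin ligase that limits p53, lies on chromosome 10 from 117688875 to 117710758 on the minus strand and had the infarct NPM1 peak with the highest −log10 q of the members. That peak ran from 117709963 to 117710912, with 61 reads, a fold of 7.71 and a −log10 q of 31.8, in the top 1.18% of the infarct list. The IL-4 peak there had 38 reads, a fold of 4.55 and a −log10 q of 12.0, in the top 7.55% of its list. Both summits lay at the same base, 591 bp inside the annotated start. The H3K4me3 summits lay 573 bp inside it in KO, with 211 reads, and 597 bp inside it in WT, with 64 reads. As background, Mdm2 has a second promoter in its first intron that p53 acts on, and its position was not used here.

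A second NPM1 region lay deep inside Mdm2, from 117693111 to 117693856, with its infarct summit 17236 bp from the start. It held an infarct peak with 42 reads and a fold of 6.48, and a sham peak with 13 reads and a fold of 6.12, the strongest sham peak at any member, in the top 6.58% of the sham list. The IL-4 list had a peak there with 43 reads and a fold of 7.31, and the untreated list none. In H3K4me3 the KO list had no peak there and the WT list one with 22 reads and a fold of 4.79. The sham peak, with a −log10 q of 6.32, was the only one of the 8 sham peaks at members that reached 5.

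Mdm4, which encodes the MDM2-related inhibitor of p53, lies on chromosome 1 from 132986105 to 133030587 on the minus strand. No list had a peak within 1 kb of its outer start. The inner start, 5171 bp downstream, had an infarct peak with 22 reads, a fold of 5.18 and a −log10 q of 8.27, and an IL-4 peak with 29 reads, a fold of 5.77 and a −log10 q of 12.3. Sham and untreated had none. H3K4me3 there was the strongest KO peak of the members by rank, in the top 0.481% of its list, with 291 reads and a fold of 12.2, against 53 reads and a fold of 9.06 in WT. The 4 summits lay within 100 to 107 bp of the inner start. This start had 5 CG dinucleotides in the 250 bases printed above, nearly as few as the unmarked outer one with 4. Before the outer start, from 133033071 to 133034347, lay a region with a KO H3K4me3 peak of 105 reads and a fold of 8.92, against a WT peak of 12 reads and a fold of 2.85. An infarct NPM1 peak of 14 reads and an IL-4 peak of 21 reads lay there too, and the gene table places the tRNA genes n-TKctt26 and n-TKctt25 in and beside the region.

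**Figure D2:**
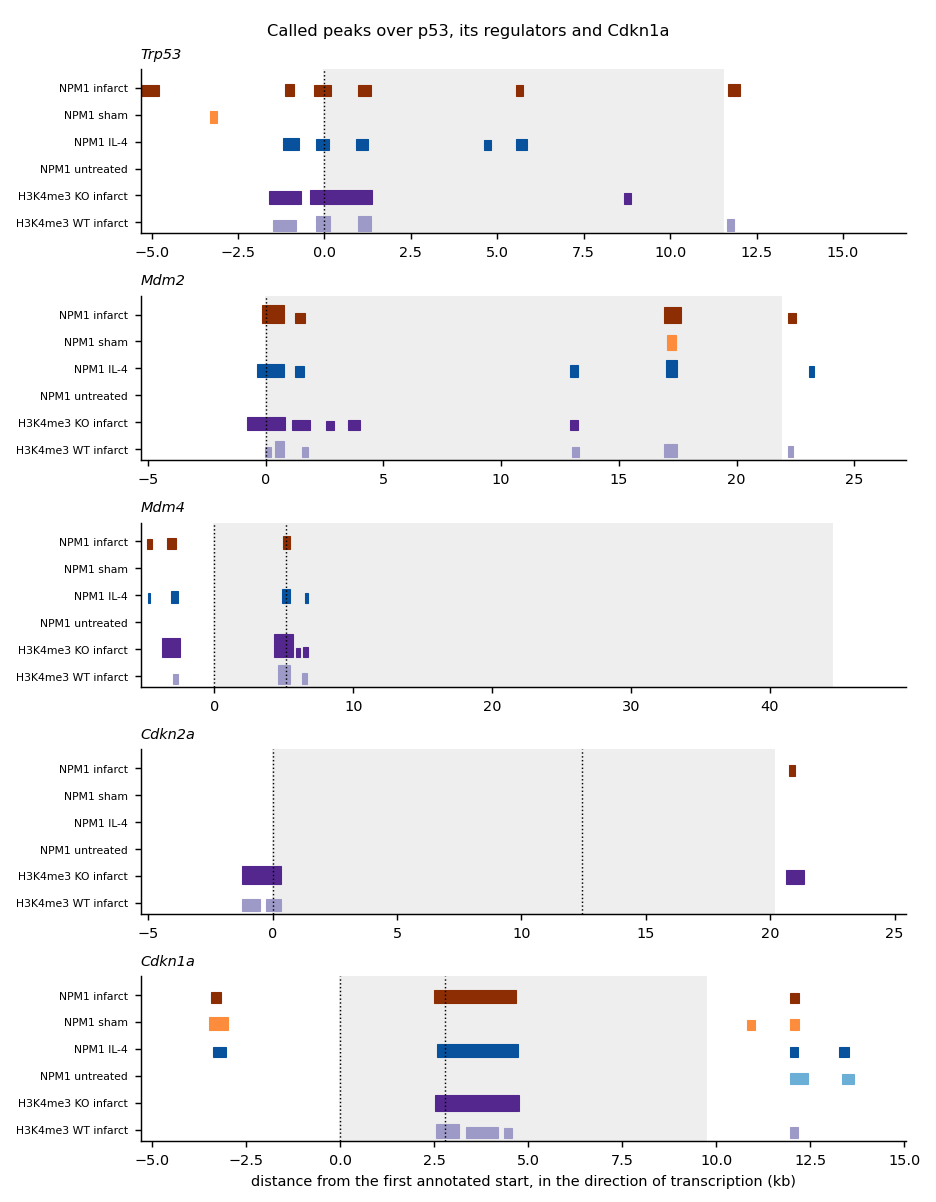
Called peaks over Trp53, Mdm2, Mdm4, Cdkn2a and Cdkn1a in the 6 libraries (rows within each panel), by distance in kb from the first annotated start in the direction of transcription. Grey is the gene, dotted lines are annotated starts, a bar spans a peak and is taller with a higher fold, up to a fold of 12. Peaks sit at the inner and not the outer start of Mdm4 and Cdkn1a, and Cdkn2a has no NPM1 bar at either start.

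Cdkn2a lies on chromosome 4 from 89274473 to 89294619 on the minus strand. By the known order of its first exons, the outer start is that of ARF and the inner one, 12427 bp downstream, that of p16, an inhibitor of cyclin-dependent kinases. No NPM1 list had a peak within 1 kb of either start. The only NPM1 peak in the whole window was a weak infarct one past the other end of the gene, with 12 reads, a fold of 3.22 and a −log10 q of 2.14. The KO H3K4me3 list had a peak there too, with 19 reads, a fold of 5.73 and a −log10 q of 9.21, which overlapped the NPM1 one, and the WT list had none. Of the 2 starts, the outer one alone carried H3K4me3. In KO 1 peak of 1591 bp covered it, with 114 reads (95% Poisson interval 94.0 to 137, counting error only), a fold of 8.23 and a −log10 q of 63.0. In WT 2 peaks lay there, with 15 reads (8.4 to 24.7) and 14 reads, folds of 4.08 and 3.75, and −log10 q of 4.27 and 3.49. The KO value was 7.6 times the WT one of 15 reads, the highest ratio among the member starts, which ran down to 3.30 at Mdm2. This ratio does not compare the same site. The KO summit lay 437 bp before the start and the WT summit of 15 reads 1042 bp before it, 605 bp apart. The WT peak that covers the start is the one with 14 reads, its summit 110 bp before the start. The WT mark was the weakest among the member starts, the next being Sesn1's inner start with 29 reads. A start of the long non-coding RNA Gm12610 lies 124 bp from the KO summit and 481 bp from the stronger WT one, so the mark cannot be assigned to 1 of the 2 transcripts.

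Weak H3K4me3 and missing NPM1 went together across the genome as well. Of 11484 starts with H3K4me3 in both genotypes, 74.0% had an NPM1 peak in both infarct and IL-4, and 12 of the 13 member starts did. Where the WT H3K4me3 summit had 15 reads or fewer, as at Cdkn2a, 22.4% of 1218 starts had NPM1 in both and 54.3% in neither. Where it had over 40 reads, as at 9 member starts, among them the 3 Bbc3 starts that share their strongest peak, 97.4% of 2678 starts had NPM1 in both and 0.597% in neither. The Cdkn2a start thus did what most starts with that little H3K4me3 did, and the 9 strongly marked member starts did what nearly all such starts did. The ranges of reads were chosen after the values had been seen. The cause of this relation was not tested. The H3K4me3 lists come from cardiac macrophages, and the IL-4 list comes from BMDM.

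Cdkn1a, which encodes the cyclin-dependent kinase inhibitor p21, lies on chromosome 17 from 29090979 to 29100722 on the plus strand. Its outer start, with the p53 element printed above, had no peak within 1 kb in any of the 6 lists. The inner start, 2790 bp downstream, had the widest NPM1 peaks of the members. The infarct peak ran from 29093483 to 29095660, 2178 bp, with 62 reads, a fold of 4.39 and a −log10 q of 18.3. The IL-4 peak ran from 29093542 to 29095704, 2163 bp, with 83 reads, a fold of 4.86 and a −log10 q of 27.9. H3K4me3 in KO covered nearly the same stretch with 1 peak of 2238 bp and 301 reads, against 3 WT peaks, the strongest 608 bp wide with 59 reads. Summits lay 190 bp (infarct), 99 bp (IL-4), 14 bp (KO) and 15 bp (WT) inside the inner start.

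The Cdkn1a window held 3 sham and 2 untreated peaks, all of them outside the gene. Before the outer start, from 29087485 to 29087993, NPM1 peaks with summits 3132 to 3277 bp away had 25 reads in infarct and 11 in sham, and 22 in IL-4, while untreated had none. Past the other end, from 29102931 to 29103411, lay the only region of the 54 that was called in 5 lists. There NPM1 had 31 reads in infarct and 16 in sham, 42 in IL-4 and 15 in untreated, and H3K4me3 had no peak in KO and 26 reads in WT. The folds there were low, 2.62 in infarct and 3.23 in sham, 2.23 in IL-4 and 2.95 in untreated, so the region did not follow the pattern of the starts, where sham and untreated had nothing.

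Ccng1, which encodes cyclin G1, an early p53 target, lies on chromosome 11 from 40748552 to 40755309 on the minus strand and had the simplest pattern. It had 1 peak at its start in each of 4 lists and no other peak in its window. NPM1 had 21 reads in infarct, with a fold of 5.46, and 21 in IL-4, with a fold of 4.25, and none in sham or untreated. H3K4me3 had 226 reads in KO, with a fold of 10.9, against 39 in WT, with a fold of 7.12. The covered bases within 2 kb of the start differed least among the marked starts, 1240 bp in KO and 1101 bp in WT.

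The apoptosis genes Bbc3, which encodes the BH3-only protein PUMA, and Bax, which encodes a protein that opens the mitochondrial outer membrane, are both on chromosome 7. Bbc3 runs from 16308398 to 16318334 on the plus strand and has 3 listed starts within 848 bp, which share their strongest peak in each list. In NPM1 that peak had 73 reads in infarct, with a fold of 3.64, and 75 in IL-4, with a fold of 3.49, and none was called in sham or untreated. A second, wider NPM1 peak had its summit 2635 bp past the innermost start in infarct and 2627 bp past it in IL-4, and ran from 16312556 to 16314024 in infarct, with 70 reads, and from 16312354 to 16314090 in IL-4, with 86 reads. H3K4me3 extended over both, in 3 KO peaks and 6 WT peaks. The local background at the Bbc3 start was the highest among member starts, 80.6 reads in KO and 15.4 in WT, and the folds there were the lowest, 2.64 in KO and 2.81 in WT.

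Bax runs from 45461695 to 45466903 on the minus strand. Its start had an infarct NPM1 peak with 50 reads and a fold of 4.83, and an IL-4 peak with 38 reads and a fold of 3.94. H3K4me3 there had 221 reads in KO, against 49 in WT. Its covered bases within 2 kb of the start were 2139 bp in KO and 637 bp in WT, the largest difference among the member starts. The strongest NPM1 peaks in the Bax window did not lie at Bax. They lay past its other end at the start of Ftl1, the gene of the ferritin light chain, with 106 reads in infarct and 105 in IL-4, in the top 1.23% and 1.86% of their lists.

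**Figure D3:**
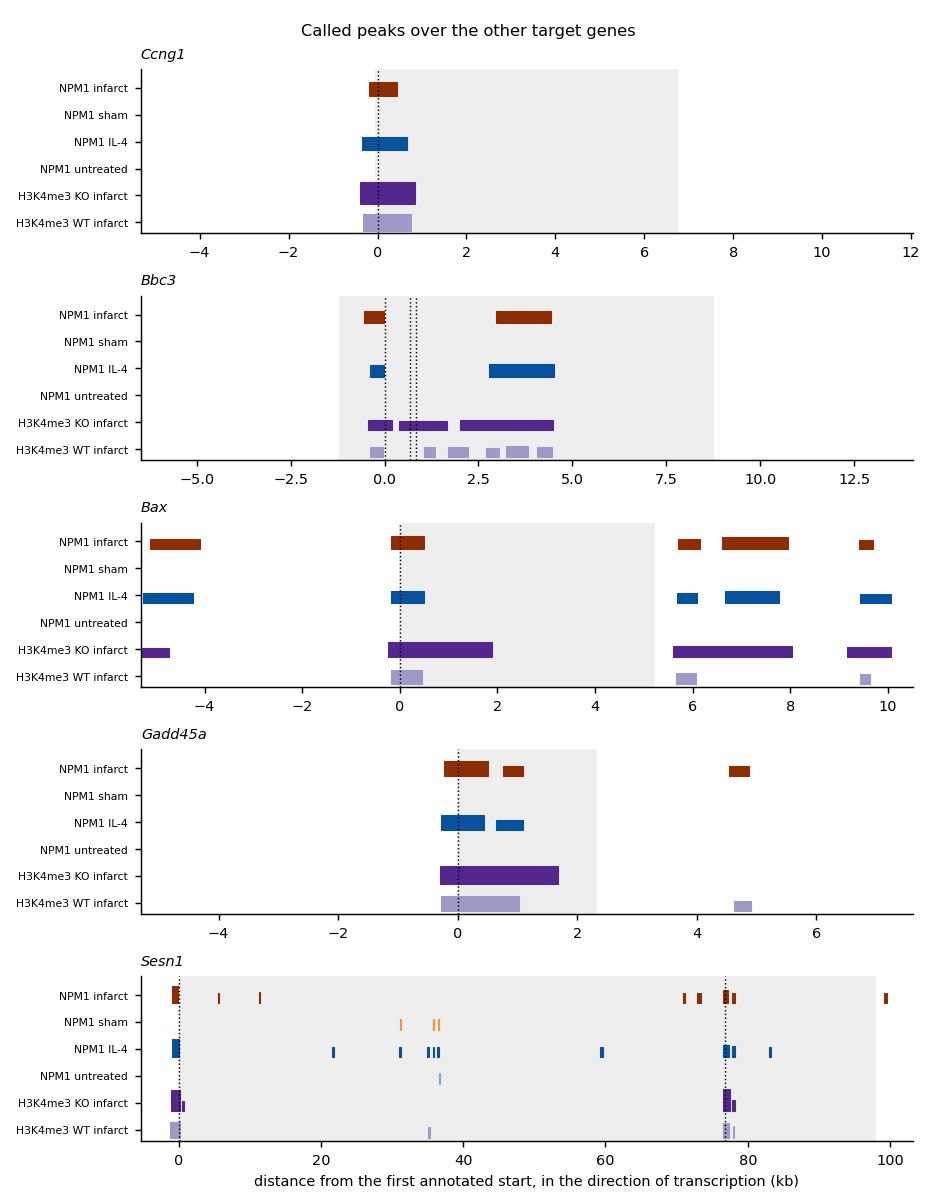
Called peaks over Ccng1, Bbc3, Bax, Gadd45a and Sesn1 in the 6 libraries (rows within each panel), by distance in kb from the first annotated start in the direction of transcription. Grey is the gene, dotted lines are annotated starts, a bar spans a peak and is taller with a higher fold, up to a fold of 12. Infarct, IL-4, KO and WT bars stack at the starts, and sham and untreated bars appear only inside Sesn1.

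Gadd45a, a growth arrest and DNA damage gene, lies on chromosome 6 from 67035096 to 67037407 on the minus strand. NPM1 had its strongest summit 32 bp before the start in infarct, with 41 reads and a fold of 6.31, and 44 bp before it in IL-4, with 48 reads and a fold of 6.17. Sham and untreated had none. The H3K4me3 summits did not sit there but 815 bp inside the gene in KO, with 229 reads, and 862 bp inside in WT, with 36 reads. These are 7 and 54 bp from the start of the non-coding RNA E230016M11Rik, and each list held 1 H3K4me3 peak that spanned both starts. A weaker NPM1 peak lay by that non-coding start as well, with 16 reads in infarct and 22 in IL-4.

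Sesn1, which encodes sestrin 1, a stress protein that restrains mTORC1, lies on chromosome 10 from 41810574 to 41908436 on the plus strand. Its 2 starts are 76865 bp apart and both were marked. At the outer start NPM1 had 38 reads in infarct, with a fold of 7.83, and 51 in IL-4, with a fold of 8.07, in the top 2.52% and 1.91% of their lists. Both summits lay 465 bp before the start, 241 bp from a start of Cep57l1, a gene read in the other direction. At the inner start NPM1 had 24 reads in infarct and 26 in IL-4, with folds of 4.98 and 4.12. H3K4me3 had 305 reads in KO against 45 in WT at the outer start, and 200 in KO against 29 in WT at the inner one. Sham had 3 peaks and untreated 1 in the long stretch between the starts, at 8 to 11 reads and −log10 q up to 1.41. IL-4 peaks overlapped all 4 of them, among these the region from 41846909 to 41847355, called in sham, IL-4 and untreated.

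Bases of promoter sequence were compared with the marks next, as a property that the choice of genes did not use. The 250 bases before the 16 member starts held 2 to 40 CG dinucleotides, with a median of 16.5, against a median of 10 over all 21263 starts. Of all starts with 0 to 4 CG, 15.9% had an infarct NPM1 peak, with 5 to 9 it was 40.4%, with 10 to 19 68.7% and with 20 or more 77.1%. The member starts were marked at 0 of 2, 2 of 3, 4 of 4 and 6 of 7 in these ranges. The 6 include the 3 Bbc3 starts, which share 1 infarct peak. The outer Cdkn2a start, with 40 CG the richest of the 16, was the unmarked one of the last range. The inner Mdm4 start, with 5, and the Trp53 start, with 9, were the marked ones of the second. The GC box letters GGGCGG, searched on both strands of the 300-base windows, occurred at 11 of the 16 member starts and at 46.2% of all starts. CCAAT occurred at 8 of 16 and 38.2%, and CACGTG at 3 of 16 (Trp53, Bax and the innermost Bbc3 start) and 7.84%. The windows of the 2 inner Bbc3 starts overlap.

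**Figure D4:**
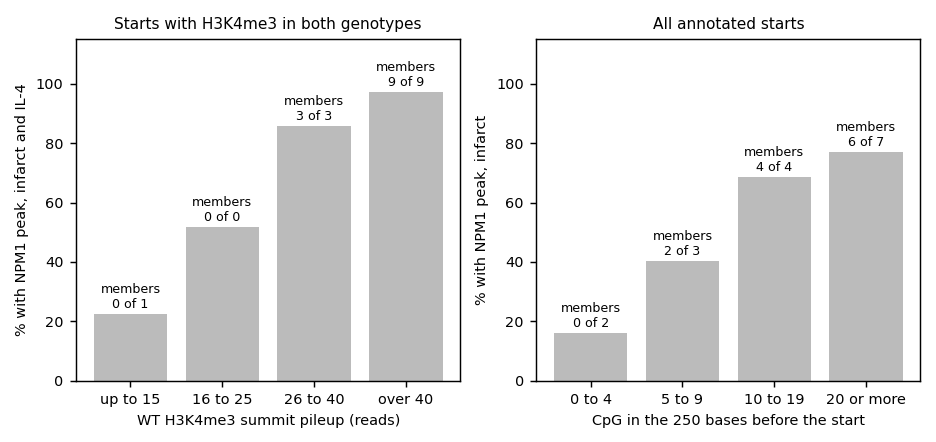
Left, percent of the starts with H3K4me3 in both genotypes that had an NPM1 peak in both infarct and IL-4, by the WT H3K4me3 summit pileup in reads. Right, percent of all annotated starts that had an infarct NPM1 peak, by the number of CG dinucleotides in the 250 bases before the start. Bars are all starts and the text above each bar counts the member starts, of which the only one in the lowest pileup range, without NPM1, is the outer Cdkn2a start. The 3 Bbc3 starts share their strongest peak in each list and are counted separately in both panels.

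KO and WT macrophages after infarction were compared to ask how promoter H3K4me3 differed without NPM1. The summit pileup was higher in KO at 13 of 13 marked member starts, against 98.9% of 11484 starts marked in both lists. The ratio of KO to WT pileup had a median of 5.10 at the member starts and 5.64 at all of these starts. With the pair of peaks that the 3 Bbc3 starts share counted once, the median over 11 member starts was 5.49. Bases under H3K4me3 peaks within 2 kb of the marked gene end were more in KO at 8 of 8 members with a gene-end peak in both lists, against 97.5% of 11685 such genes. The medians were 1609 bp in KO and 990 bp in WT over these members, and 1523 bp in KO and 921 bp in WT over all such genes. These members thus moved as nearly the whole genome did between the 2 libraries. At Gadd45a the end used for the covered bases was the one away from its start, since 1 KO peak lay within 1 kb of both ends. The bases there were 1373 bp in KO and 721 bp in WT. Within 2 kb of the Gadd45a start they were 1980 bp in KO and 1303 bp in WT. Enrichment of the libraries and H3K4me3 per cell cannot be told apart with 1 library each.

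The fold over the local background did not follow the pileup at 3 members. It was higher in KO at 8 of 13 member starts, or 8 of 11 with the Bbc3 peaks counted once, against 94.3% of the 11484 starts. It was lower in KO at Trp53 (4.73 in KO and 6.10 in WT), at Mdm2 (5.24 in KO and 7.42 in WT) and at the 3 Bbc3 starts, which share their strongest peak (2.64 in KO and 2.81 in WT). At these summits the local background, which the peak caller reads around the peak, was 38.9 reads in KO against 7.36 in WT at Trp53, 39.4 against 7.76 at Mdm2 and 80.6 against 15.4 at Bbc3. The fold is in essence the summit pileup over this background. It is thus lower in KO where the background differs from WT by a larger factor than the pileup does. The ratio of KO to WT pileup was 3.76 at Trp53, 3.3 at Mdm2 and 4.76 at Bbc3. It was 5.1 at the inner Cdkn1a start and 4.51 at Bax, where the KO fold was higher. The size of the KO background alone does not set the direction. At the inner Cdkn1a start the background was 44.4 reads in KO against 10.7 in WT, and the fold was 6.66 in KO and 5.11 in WT. At Bax it was 35.1 against 8.04, and the fold was 6.15 in KO and 5.53 in WT.

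**Figure D5:**
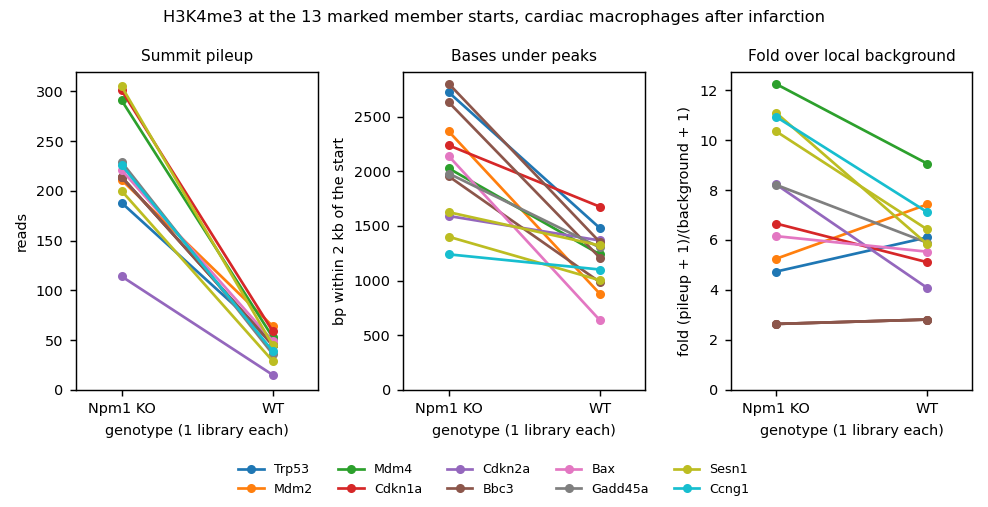
H3K4me3 at the 13 member starts marked in both genotypes, KO on the left and WT on the right of each panel, with 1 line per start and 1 library per genotype. The panels give the summit pileup in reads, the bases under peaks within 2 kb of the start and the fold over the local background. Every start is higher in KO than in WT in the first 2 panels, and in the third Trp53, Mdm2 and Bbc3 are lower in KO.

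Other genes of the pathway were counted from 2 lists, by peaks within 1 kb of either gene end. This rule misses inner starts, as at Mdm4 and Cdkn1a, so a gene named below as without a peak could carry one there. Of 19 regulators of p53 and ARF, 16 had an NPM1 peak in infarct and 1 in sham, 15 in IL-4 and 0 in untreated, and 17 had H3K4me3 in KO and 16 in WT. The shares of all genes by this rule, given above, were 50.6% in infarct and 10.9% in sham, 51.2% in IL-4 and 6.71% in untreated, and 61.8% in KO and 57.1% in WT, so the sham and untreated counts are near the background. The strongest infarct peaks without a sham peak lay at Atm, the kinase that signals DNA breaks (fold 11.2, −log10 q 37.3), at Chek2, a checkpoint kinase (7.24 and 20.7), at Npm1 itself (7.14 and 16.8) and at Hipk2, a p53 kinase (5.83 and 13.3). In IL-4 they lay at Atm (8.14 and 26.2), Rchy1, a ubiquitin ligase that acts on p53 (6.60 and 20.5), Chek2 (5.04 and 13.2) and Npm1 (5.46 and 12.3). Trp63, Trp73 and Cdkn2b, the neighbour of Cdkn2a, had no peak in infarct or sham. Usp7, Kat5, Trp63 and Trp73 had none in IL-4 or untreated. Trp73 had H3K4me3 in KO only, with −log10 q of 8.21, and Usp7 and Trp63 had it in neither genotype. At Npm1, H3K4me3 had −log10 q of 88.3 in KO and 20.5 in WT, which does not check the deletion, since the lists do not measure the protein or its RNA.

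Of 27 further p53 targets and relatives of the members, 20 had an NPM1 peak in infarct and 3 in sham, 21 in IL-4 and 2 in untreated, and 27 had H3K4me3 in KO and 25 in WT. The sham and untreated counts are near the 10.9% and 6.71% of all genes, and the infarct and IL-4 counts stand beside 50.6% and 51.2%, the KO and WT ones beside 61.8% and 57.1%. The strongest infarct peaks without a sham peak lay at Apaf1, the apoptosome scaffold (fold 8.24), Rrm2b, a subunit of a ribonucleotide reductase (7.58), Plk2, a polo-like kinase (6.31), and Gadd45g (4.94). In IL-4 they lay at Rrm2b (9.08), Btg2, an antiproliferative gene (5.29), Plk2 (5.95) and Ddb2, a DNA repair gene (7.06). Perp was the 1 gene with a peak in sham and not in infarct, with −log10 q of 2.06. Pmaip1, Tnfrsf10b, Eda2r, Zmat3, Tigar and Rprm had none in infarct or sham. Tnfrsf10b, Perp, Eda2r, Zmat3, Ei24 and Rprm had none in IL-4 or untreated. Rprm and Eda2r had H3K4me3 in KO only, with −log10 q of 5.01 and 3.52, both in the weaker part of the KO list.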

How the data were processed

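CUT&Tag libraries were made with a commercial transposase kit, per the labels' protocols, with 1 library per group. The submitters' processing notes name MACS2 2.2.7.1, Bowtie2, deepTools and bcl2fastq 2.17, with build mm10. How duplicates were treated and whether a control library was used is not stated. The deposited lists hold per peak a score, a fold enrichment and −log10 p and q values, as the authors' peak caller wrote them, called on each library alone. The smallest deposited −log10 p was 2.01 to 2.02, and 5.01% to 27.8% of the peaks of a list had q above 0.05. No peaks of a list overlapped.

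The fold, a ratio of summit pileup to local background with 1 added to each, and the −log10 p deposited by the authors were solved for a whole-number pileup. This matched within 0.001 at 99.9% of summits in every list. The genome-wide background of a list was its most frequent value. For thinning, pileup and background were scaled to the shallower library, the pileup rounded down, and the peak kept at a Poisson p of 0.01 or less. Code was tested on simulated lists.

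Genes and starts came from RefSeq tables of GRCm38.p6. All 10 members matched both. The table of starts covers 17492 of 21887 protein-coding genes. The start rule and the sequence counts were added after the data had been seen. Members and lists were chosen with earlier results of these data known. All members are named, and of the other lists up to 4 genes by rank per pair and direction, genes with a peak in neither library where these were 8 or fewer, and Npm1. Of the target list, 1 gene is not reported here. Of the lymphocyte list, 5 of 6 genes were in the table as protein-coding. Python 3.11.15, numpy 2.4.6, pandas 2.3.3, scipy 1.17.1 and matplotlib 3.10.9 were used. Alternatives were peak thresholds, equal list lengths, summits in the window, other windows, thinning and reciprocal overlap.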

Additional observations from a re-analysis of the deposited data

How the results depend on the processing

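Of 106 recomputed counts, 96 stayed within 1.5 times the reported one, 10 moved and 0 turned direction. The moved ones rest on few or weak peaks. With a 2.5 kb window at gene ends, sham had 1 member and untreated 1, Cdkn1a in both, against 0 reported. Over the member windows, sham had 1 member with −log10 q of 5 or more (Mdm2) and 2 over the gene alone (Mdm2 and Sesn1), against 4. Untreated had 1 with q of 0.05 or less, 0 with −log10 q of 5 or more, 1 over the gene alone and 4 with 10 kb on either side, against 2. With −log10 q of 5 or more, infarct gene-end peaks that overlap H3K4me3 numbered 7, against 13 of 14, and infarct gene-end peaks shared with IL-4 numbered 7, against 11 of 14, since fewer peaks are left. By annotated starts, added after the data had been seen, both numbers were 14 of 14.

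No paired analysis was possible because each group has 1 library. Sham and untreated are the shallow libraries, and at their genome-wide background a summit under 5 reads could not be called in either.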
